A study of Homo sapiens with 12 samples.

Results

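The host transcripts of microRNAs and of small nucleolar RNAs (snoRNAs) were examined in MCF-10A cells that carried forms of Notch1 or an empty vector. A gene was taken as a member when its array symbol began with MIR and ended with HG, was MIR followed by a number alone, or was SNHG followed by a number, with GAS5 and DLEU2 added. This gave 59 of the 19775 genes with a single symbol on the array. The 59 are 37 microRNA hosts with DLEU2 among them, 12 snoRNA hosts (11 SNHG genes and GAS5) and 10 symbols of a microRNA itself. Each gene is given by 1 probe set, a group of short probes read as 1 value, namely the one with the highest mean over 12 arrays. All 59 were tested with no filter on dim signals, although 32 of them had a mean below the median of all probe sets (5.67 on the log2 scale).

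MCF-10A is an established, non-tumorigenic line of human mammary epithelial cells. All cells were infected with a retrovirus and collected 48 h later, in 4 groups of 3 arrays. The groups received NICD, Notch1 L1601P+ΔP, wild-type full-length Notch1 or the vector alone. In Notch1 L1601P+ΔP a leucine of the heterodimerization domain is replaced by proline and the C-terminal PEST region is missing, whereas NICD is the free intracellular domain. The descriptions of the NICD samples add "gfp", and the sources used here do not say what it stands for. Replicates are labelled biological with nothing on separate cultures, so p-values measure only the spread between these samples.

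Notch receptors are cut on activation, and the released intracellular domain enters the nucleus, where it joins the DNA-binding protein RBPJ at target genes. Many microRNAs are cut by the nuclease DROSHA from long noncoding transcripts, and most snoRNAs are trimmed from spliced introns of a host. The spliced host is a separate product, often short-lived, so its level and that of the small RNA need not go together. These arrays read labelled copies of longer RNA, and neither mature microRNAs nor snoRNAs were measured. In mammary epithelium, miR-205 and the miR-200 family are known for holding back the repressors ZEB1 and ZEB2, and miR-100, miR-125b and let-7 are made from clusters that lie in long host transcripts.

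The mature microRNAs below lie inside members that were called in a comparison with vector, and they are shown because they name the small RNA that each host can give. They come from RefSeq, build GRCh38.p14, and capitals mark the seed, bases 2 to 8, which pairs with target RNAs. miR-205-5p lies at chr1:209432166-209432187 on the plus strand, inside both MIR205HG and MIR205. The cluster inside MIR100HG is on the minus strand, with miR-100-5p at chr11:122152275-122152296, let-7a-5p at chr11:122146568-122146589 and miR-125b-5p at chr11:122099809-122099830. In MIR200CHG, on the plus strand, miR-200c-3p lies at chr12:6963742-6963764 and miR-141-3p at chr12:6964155-6964176. miR-31-5p lies in MIR31HG at chr9:21512158-21512178 on the minus strand, and miR-34b-5p in MIR34BHG at chr11:111512950-111512972 on the plus strand. On the minus strand of chromosome 2, miR-4435 lies at chr2:111321061-111321082 inside MIR4435-2HG and miR-3682-3p at chr2:53849136-53849156.
hsa-miR-205-5p: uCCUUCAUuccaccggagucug
hsa-miR-100-5p: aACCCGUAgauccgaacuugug
hsa-let-7a-5p: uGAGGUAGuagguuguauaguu
hsa-miR-125b-5p: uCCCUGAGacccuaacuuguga
hsa-miR-200c-3p: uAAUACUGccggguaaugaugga
hsa-miR-141-3p: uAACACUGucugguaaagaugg
hsa-miR-31-5p: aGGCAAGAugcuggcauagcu
hsa-miR-34b-5p: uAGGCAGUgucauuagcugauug
hsa-miR-4435: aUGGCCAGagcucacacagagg
hsa-miR-3682-3p: uGAUGAUAcagguggagguag

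Across the members outside chromosome 8, 96 mature microRNAs were matched in RefSeq to 43 members, and 11 seeds occurred in more than 1 member. The microRNAs inside MIR124-2HG and MIR2052HG, both on chromosome 8, were left out of these counts. In 2 of the 11 the members are MIR205 and MIR205HG, which hold the same microRNA at 1 locus. The seeds of miR-200c-3p and miR-141-3p, both from MIR200CHG, differ by 1 substitution, U4C, counted from the first base of the mature microRNA. MIR100HG shares its seeds with another host: ACCCGUA and CCCUGAG also lie in MIR99AHG, and the let-7 seed GAGGUAG also lies in MIR99AHG, MIRLET7BHG and MIR4500HG. In RefSeq, 36 of the 37 microRNA hosts hold at least 1 microRNA gene, and 11 of them hold several. Of the 12 snoRNA hosts, 8 hold at least 1 snoRNA gene, with 11 of them in GAS5. All these counts go by position without regard to strand, so a small RNA inside a host's span need not be made from it. MIR924HG, for example, spans MIR5583-1 on the plus strand and MIR5583-2 on the minus strand.

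Deposited array medians lay between 5.64 and 5.7 and single values between 2.27 and 15.01, and the lowest correlation between any pair of arrays was 0.983. Signals of the basal keratins KRT5 (mean 13.33 with vector) and KRT14 (13.33) were high. Those of the blood marker PTPRC (3.63) and the endothelial marker CDH5 (3.6) were dim. The other blood markers, CD3E (6.1) and ITGAM (5.43), and endothelial markers, PECAM1 (6.56) and TEK (4.83), read higher. The luminal receptors ESR1 and PGR read 6.32 and 3.78 with vector, and the luminal KRT18 (12.53), KRT8 (9.88) and GATA3 (9.07) read higher. FOXA1 read 6.79 and KRT19 4.51. Of the fibroblast markers, DCN read 10.85, COL1A1 7.7, PDGFRB 5.78 and COL3A1 4.25. No value on this scale marks absence. With NICD against vector, 2 of 5 basal markers were called higher and 2 lower, 1 of 7 luminal markers higher and 3 lower, and 1 of 4 fibroblast markers, DCN, higher. The summed linear signal of the fibroblast list was 2070 to 2210 with vector and 2580 to 2760 with NICD. With full-length Notch1 it was 2040 to 2250, and with the mutant 2200 to 2280. That of the basal list was 25900 to 28100 with vector, 29500 to 30300 with full-length Notch1, 33900 to 34800 with the mutant and 33500 to 36400 with NICD. For the luminal list it was 7440 to 7860, 7390 to 7500, 6800 to 7270 and 6590 to 7180 in the same order. A linear sum is weighted to the brightest markers, in the basal list KRT5 (0.58 with NICD against vector) and KRT14 (0.57). In that comparison the basal markers ITGB4 (-1.97, limma adjusted p = 1.75e-10) and EGFR (-0.72) fell, and CDH3 (0.14) was not called. The part of these shifts in the results on host transcripts was not tested.

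NICD changed 17 of the 59 members against vector, 7 upward and 10 downward. The falls were led by MIR205HG, MIR205 and MIR100HG, the only members called with a log2 difference of at least 1 in size, and the rises by MIR4435-2HG. The share of members called, 28.8%, was near the 27.6% called among all genes tested (limma with Benjamini-Hochberg adjustment over all 19775 genes, adjusted p under 0.05). By direction, 11.9% of members were called higher against 9.54% of all genes, and 16.9% lower against 18.1%. The median log2 difference was 0.03 over the members and -0.02 over all genes. Arrays of both groups did not overlap for 26 members, or 44.1%, against 39.1% of all genes. The count of 17 fell to 11 without vector replicate 3, and the 7 rises became 2 without vector replicate 3, 3 without NICD replicate 1 and 4 without vector replicate 1. After cyclic loess normalization of the same values, 8 members rose and 9 fell, while the higher share of all called genes moved from 34.6% to 51.6%.

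**Figure D1:**
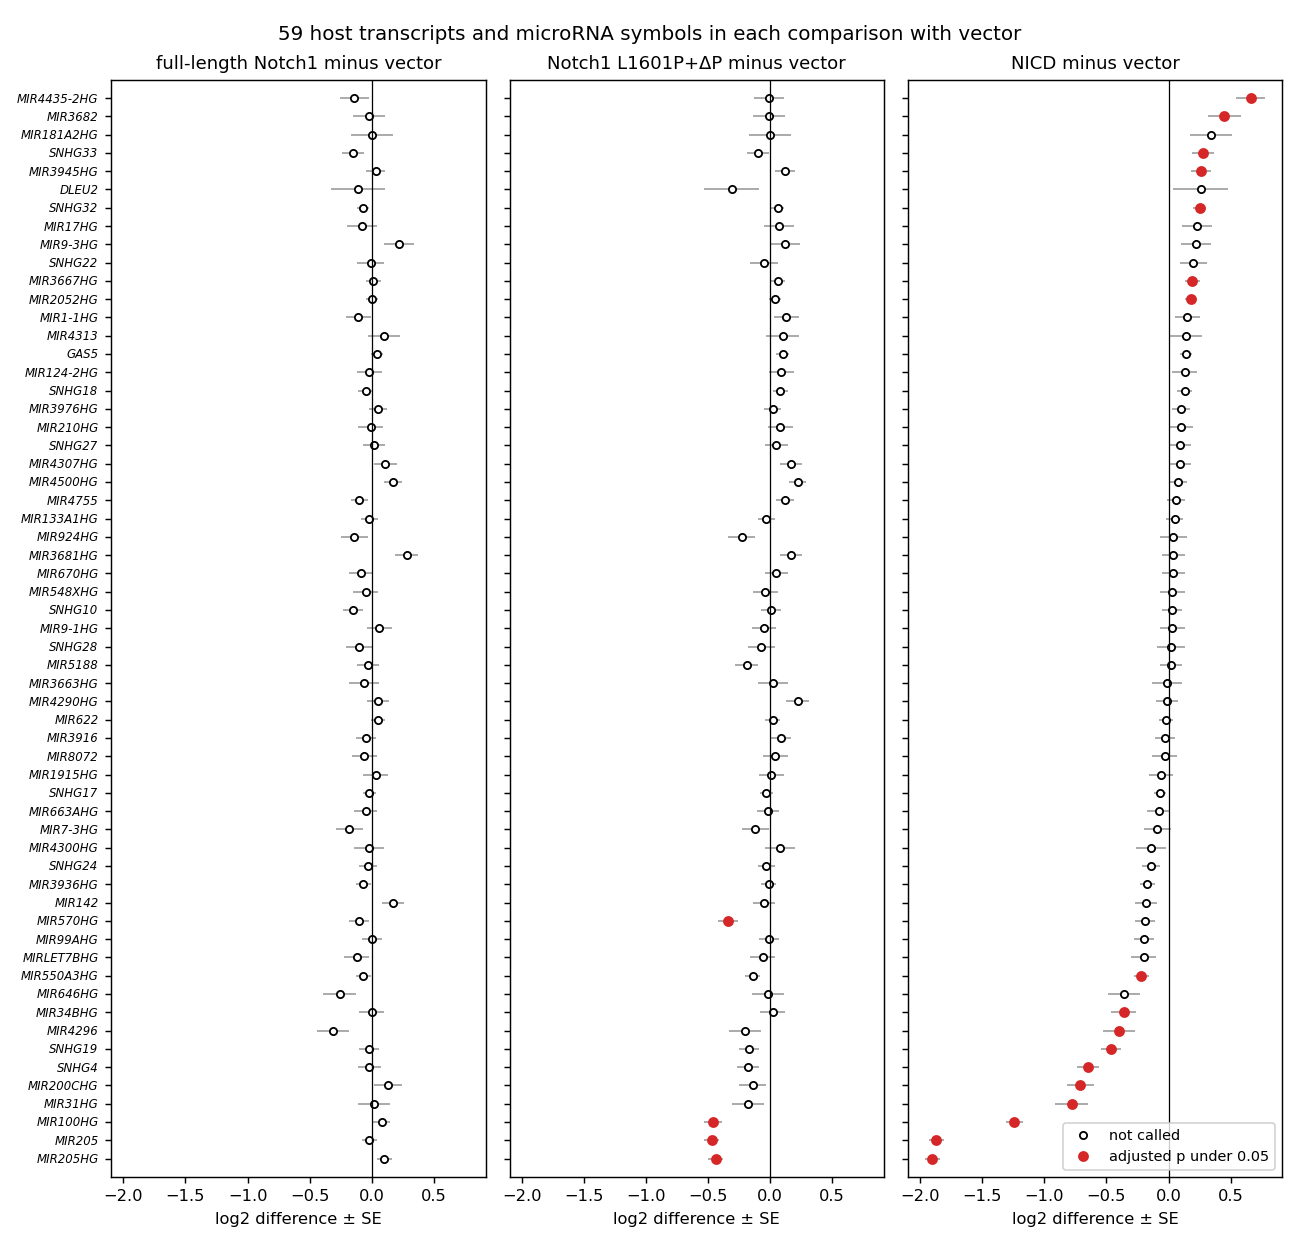
Each row is 1 of the 59 members, and the panels give the log2 difference from vector with its standard error in the order full-length, Notch1 L1601P+ΔP and NICD (3 arrays per group, filled points called at an adjusted p under 0.05). With NICD 17 points are filled, from MIR205HG at -1.90 to MIR4435-2HG at 0.66, with Notch1 L1601P+ΔP 4, and with full-length Notch1 none.

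The MIR205 locus showed the largest fall among the members, on a pair of probe sets. MIR205HG, the long transcript that contains miR-205, read 11.15, 11 and 11 on the vector arrays, 11.11, 11.13 and 11.19 with the full-length receptor, 10.65, 10.62 and 10.54 with Notch1 L1601P+ΔP, and 9.15, 9.07 and 9.23 with NICD (log2 signal). The NICD arrays were the lowest, the Notch1 L1601P+ΔP arrays lay below all vector and full-length arrays, and those last groups overlapped. Its difference from vector was -1.90 ± 0.06 (SE of the fit, n = 3 per group) with NICD, a 3.72-fold lower signal (limma adjusted p = 1.63e-10), and -0.44 ± 0.06 with Notch1 L1601P+ΔP (limma adjusted p = 0.00102). In a bulk sample such as these, fewer cells with a transcript and less transcript per cell cannot be told apart.

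The probe set under the symbol MIR205 reads the same locus, so it does not add an independent gene. Its signals were 10.87, 10.73 and 10.67 with vector, 10.68, 10.75 and 10.76 with the full-length receptor, 10.27, 10.28 and 10.30 with Notch1 L1601P+ΔP, and 8.91, 8.96 and 8.77 with NICD. The groups stood in the same order as for MIR205HG, with vector and full-length arrays overlapping. It fell by 1.87 on the log2 scale with NICD (SE 0.06, limma adjusted p = 2.32e-10) and by 0.47 with Notch1 L1601P+ΔP (SE 0.06, limma adjusted p = 0.000908).

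MIR100HG, the host of miR-100, let-7a-2 and miR-125b-1, also fell with both activated forms. It read 8.61, 8.58 and 8.56 with vector, 8.52, 8.64 and 8.81 with the full-length receptor, 8.13, 8.05 and 8.19 with Notch1 L1601P+ΔP, and 7.39, 7.27 and 7.36 with NICD. The NICD arrays and the Notch1 L1601P+ΔP arrays each formed a separate range below the other groups. The differences from vector were -1.24 ± 0.07 with NICD (2.37-fold lower, limma adjusted p = 3.71e-08) and -0.46 ± 0.07 with Notch1 L1601P+ΔP (limma adjusted p = 0.00257). A dimmer probe set of MIR100HG, with a vector mean of 3.64, differed by -0.18 with NICD and -0.09 with Notch1 L1601P+ΔP and was not called, so the call rests on the brighter one. The hosts that share its seeds were not called with NICD: MIR99AHG differed by -0.20 (limma adjusted p = 0.0761), MIRLET7BHG by -0.20 (limma adjusted p = 0.164) and MIR4500HG by 0.08 (limma adjusted p = 0.522). With vector, MIR99AHG (mean 4.07) and MIR4500HG (3.37) lay below the median of all probe sets, and MIRLET7BHG read 6.82. At the dim levels of MIR99AHG and MIR4500HG a change is hard to see. For none of the hosts that share its seeds does the missing call show that the host was unchanged. Whether these hosts differ from MIR100HG in their change was not tested.

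MIR200CHG, which holds miR-200c and miR-141, fell with NICD. Its signals were 7.98, 7.97 and 8.10 with vector, 8.20, 8.25 and 8.0 with the full-length receptor, 7.92, 7.84 and 7.88 with Notch1 L1601P+ΔP, and 7.55, 7.37 and 7.0 with NICD. All 3 NICD arrays lay below every other array, with replicate 3 the lowest. The difference from vector was -0.71 ± 0.11 with NICD (1.64-fold lower, limma adjusted p = 0.000429). The Notch1 L1601P+ΔP arrays lay just below the vector arrays without overlap, and that difference of -0.14 was not called (limma adjusted p = 0.52).

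MIR31HG, the host of miR-31, overlaps the interferon gene IFNE in RefSeq, and which of the pair the probes read was not tested. It read 6.48, 6.64 and 6.88 with vector, 6.59, 6.68 and 6.78 with the full-length receptor, 6.36, 6.56 and 6.53 with Notch1 L1601P+ΔP, and 6.20, 5.66 and 5.81 with NICD. The NICD arrays lay below all others, and the Notch1 L1601P+ΔP arrays overlapped those of vector. MIR31HG differed from vector by -0.78 ± 0.13 with NICD (limma adjusted p = 0.00061) and -0.18 ± 0.13 with Notch1 L1601P+ΔP (limma adjusted p = 0.455).

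**Figure D2:**
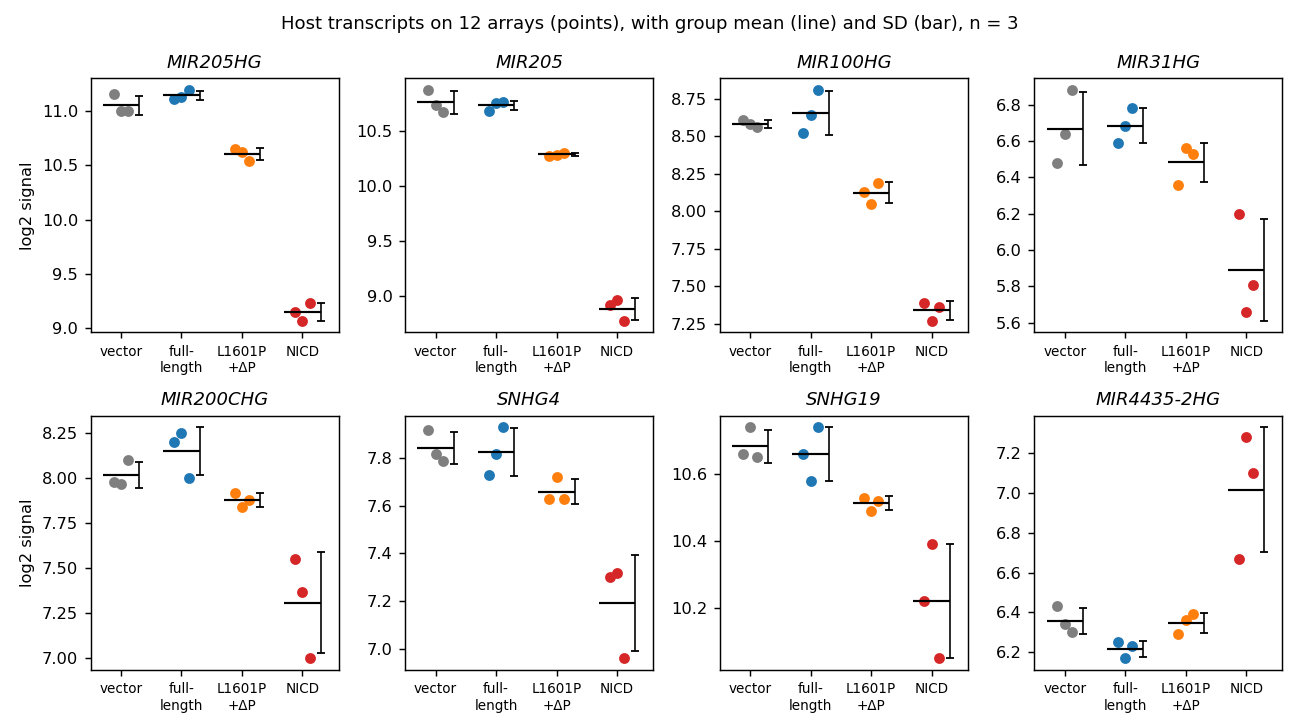
Points give the log2 signal of 8 host transcripts on each of the 12 arrays, with the group mean as a line and the SD as a bar (n = 3), on a separate axis for each transcript that does not start at 0. MIR205HG, MIR205 and MIR100HG step down from vector to Notch1 L1601P+ΔP and again to NICD, and in every panel the NICD arrays lie apart from all other arrays.

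MIR34BHG, the host of miR-34b and miR-34c, a pair induced by p53 in many cells, had a smaller fall. This host overlaps BTG4 in RefSeq, and which of the genes the probes read was not tested. It read 5.18, 5.24 and 5.52 with vector, 5.35, 5.27 and 5.32 with the full-length receptor, 5.39, 5.22 and 5.39 with Notch1 L1601P+ΔP, and 5.10, 4.79 and 4.97 with NICD. The NICD arrays lay below all others, and the other 3 groups overlapped. Its difference with NICD was -0.36 ± 0.10 (limma adjusted p = 0.0154), and the call was lost without vector replicate 3 or NICD replicate 2 (adjusted p at most 0.0658). MIR4296, whose microRNA lies inside CTBP2, read 3.97, 3.90 and 4.22 with vector, 3.68, 3.67 and 3.81 with the full-length receptor, 3.88, 4.04 and 3.58 with Notch1 L1601P+ΔP, and 3.73, 3.40 and 3.77 with NICD. The NICD arrays lay below those of vector and overlapped both other groups, at a level close to the floor of these arrays. Its difference of -0.40 ± 0.13 (limma adjusted p = 0.0333) was not called without vector replicate 1, vector replicate 3 or NICD replicate 2 (adjusted p at most 0.137). MIR550A3HG, which overlaps ZNRF2P2 in RefSeq, fell by 0.22 (SE 0.06, limma adjusted p = 0.015). The call was lost without vector replicate 2 or NICD replicate 1 (limma adjusted p at most 0.069) and after cyclic loess (-0.13, limma adjusted p = 0.123).

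Of the microRNA hosts, MIR4435-2HG rose most with NICD. This long noncoding RNA has a near-identical relative, CYTOR, so reads of the pair by short probes are uncertain. It read 6.43, 6.34 and 6.30 with vector, 6.25, 6.17 and 6.23 with the full-length receptor, 6.29, 6.36 and 6.39 with Notch1 L1601P+ΔP, and 6.67, 7.28 and 7.10 with NICD. All NICD arrays lay above every other array, and the full-length arrays lay just below the rest. The difference from vector was 0.66 ± 0.12 with NICD (1.58-fold higher, limma adjusted p = 0.00084) and -0.01 ± 0.12 with Notch1 L1601P+ΔP (limma adjusted p = 0.973). A dimmer probe set differed by 0.16 with NICD and was not called, and CYTOR itself rose by 0.78 (SE 0.24, limma adjusted p = 0.0263).

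The probe set under MIR3682, a microRNA that RefSeq places inside the read-through gene GPR75-ASB3, read 6.95, 6.80 and 6.59 with vector, 6.54, 6.83 and 6.90 with the full-length receptor, 6.72, 6.93 and 6.65 with Notch1 L1601P+ΔP, and 7.09, 7.10 and 7.5 with NICD. The NICD arrays lay above all others, led by replicate 3. The difference of 0.45 ± 0.13 (limma adjusted p = 0.0235) was not called without vector replicate 2, vector replicate 3 or NICD replicate 3 (adjusted p at most 0.102). Signal of the host gene and of the microRNA precursor cannot be told apart there.

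The 3 remaining rises among microRNA hosts were small. MIR3945HG rose by 0.26 (SE 0.08, limma adjusted p = 0.0342), a call lost without any 1 of the 3 vector arrays, NICD replicate 1 or NICD replicate 2 (adjusted p at most 0.118) and on its dimmer probe set (0.09, adjusted p = 0.63) or with the mean of both (0.18, adjusted p = 0.0859). MIR3667HG rose by 0.19 (SE 0.06, limma adjusted p = 0.0276), lost without vector replicate 3 or any 1 of the NICD arrays (adjusted p at most 0.117) and on its dimmer probe set (0.05). MIR2052HG, on chromosome 8, rose by 0.18 (SE 0.05, limma adjusted p = 0.0272), lost without vector replicate 1, vector replicate 3, NICD replicate 1 or NICD replicate 2 (adjusted p at most 0.0918), and also with only the 6 arrays compared, with 1 median probe set per gene over all genes, or with a variance trend in eBayes (adjusted p at most 0.16).

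Among the 12 snoRNA hosts, NICD lowered 2 and raised 2, so 4 of 12 were called beside 27.6% of all genes (9.54% higher and 18.1% lower), a share near the background. SNHG4, the host of SNORA74A, read 7.92, 7.82 and 7.79 with vector, 7.73, 7.82 and 7.93 with the full-length receptor, 7.63, 7.72 and 7.63 with Notch1 L1601P+ΔP, and 7.30, 7.32 and 6.96 with NICD. The NICD arrays were the lowest and the Notch1 L1601P+ΔP arrays lay between them and the overlapping vector and full-length arrays. SNHG4 differed from vector by -0.65 ± 0.09 with NICD (1.57-fold lower, limma adjusted p = 0.000131) and -0.18 ± 0.09 with Notch1 L1601P+ΔP (limma adjusted p = 0.269). SNHG4 overlaps MATR3, a nuclear matrix protein gene, in RefSeq.

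SNHG19, the host of SNORD60, showed the same order of groups. Its signals were 10.66, 10.74 and 10.65 with vector, 10.66, 10.58 and 10.74 with the full-length receptor, 10.53, 10.49 and 10.52 with Notch1 L1601P+ΔP, and 10.22, 10.39 and 10.05 with NICD. The NICD arrays lay below all others, and the vector and full-length arrays overlapped. SNHG19 differed from vector by -0.46 ± 0.08 with NICD (limma adjusted p = 0.000551) and -0.17 ± 0.08 with Notch1 L1601P+ΔP (limma adjusted p = 0.234).

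SNHG32, which holds SNORD48 and SNORD52, rose a little. It read 11.40, 11.42 and 11.35 with vector, 11.36, 11.28 and 11.31 with the full-length receptor, 11.41, 11.43 and 11.50 with Notch1 L1601P+ΔP, and 11.60, 11.70 and 11.60 with NICD. The NICD arrays lay above all others, at 0.25 ± 0.05 over vector (limma adjusted p = 0.00341). SNHG33, which holds snoRNA genes of the SNORA63 family, read 6.75, 7.02 and 6.86 with vector, 6.79, 6.68 and 6.71 with the full-length receptor, 6.64, 6.74 and 6.95 with Notch1 L1601P+ΔP, and 7.29, 7.08 and 7.08 with NICD. Its NICD arrays also lay above all others, and its other 3 groups overlapped. The difference from vector was 0.28 ± 0.09 (limma adjusted p = 0.0412), with 0.30 on its other probe set (limma adjusted p = 0.0184, over all probe sets). The call on the first was lost in 7 of the 12 fits that left out 1 array: vector replicates 1 and 3, full-length replicates 2 and 3, Notch1 L1601P+ΔP replicate 2, and NICD replicates 1 and 3 (adjusted p at most 0.162).

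GAS5, a growth arrest transcript with 11 snoRNA genes, was not called with NICD. It read 6.88, 6.83 and 6.83 with vector, 6.88, 6.92 and 6.87 with the full-length receptor, 6.96, 6.99 and 6.90 with Notch1 L1601P+ΔP, and 7.03, 7.02 and 6.91 with NICD. Both activated groups lay above the vector arrays without overlap, at 0.10 ± 0.05 for Notch1 L1601P+ΔP (limma adjusted p = 0.288) and 0.14 ± 0.05 for NICD (limma adjusted p = 0.0658). SNHG17, with several SNORA71 genes inside, differed by -0.07 ± 0.05 with NICD (limma adjusted p = 0.394). The 8 snoRNA hosts not called with NICD differed by -0.14 to 0.20.

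DLEU2, the host of miR-15a and miR-16-1 in the region lost in many chronic lymphocytic leukaemias, was carried by 7 probe sets. The brightest read 7.5, 7.14 and 7.01 with vector, 6.74, 7.15 and 7.42 with the full-length receptor, 6.99, 7.04 and 6.69 with Notch1 L1601P+ΔP, and 7.18, 7.27 and 7.98 with NICD. Replicate 3 of NICD stood high, and the other NICD arrays lay within the vector range. The difference from vector, 0.26 ± 0.22, was not called (limma adjusted p = 0.44), and neither was that between NICD and Notch1 L1601P+ΔP, 0.57 ± 0.22 (limma adjusted p = 0.0894). On the third probe set the latter was 0.61 (limma adjusted p = 0.0214 over all probe sets), and over the 7 probe sets it ran from -0.15 to 0.61. DLEU1, which overlaps DLEU2 in RefSeq and is no member, fell with NICD by 0.73 (SE 0.06, limma adjusted p = 1.56e-06).

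**Figure D3:**
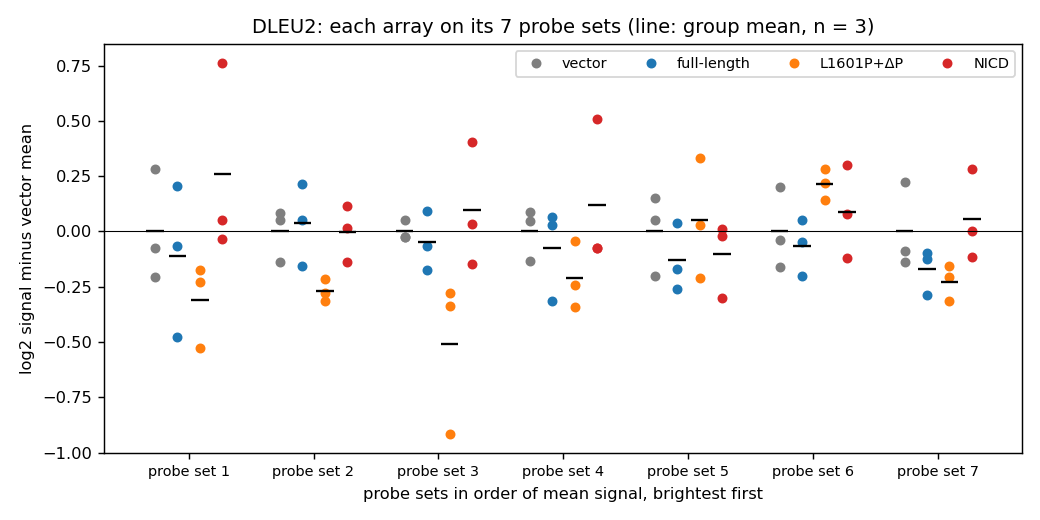
Points give each of the 12 arrays on the 7 probe sets of DLEU2 as log2 signal minus the vector mean, with the group mean as a line (n = 3). NICD replicate 3 is the highest array on probe sets 1, 3, 4, 6 and 7, and on probe set 3 the Notch1 L1601P+ΔP arrays lie below all others.

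Some members with differences as large as those called were not called. MIR181A2HG, the host of miR-181a and miR-181b, read 5.44, 5.48 and 5.50 with vector and 5.64, 5.65 and 6.15 with NICD. Its groups did not overlap, but replicate 3 of NICD stood apart and the difference of 0.34 ± 0.17 was not called (limma adjusted p = 0.176). MIR646HG read 5.39, 5.19 and 5.27 with vector and 4.56, 5.07 and 5.13 with NICD, a difference of -0.36 ± 0.13 (limma adjusted p = 0.0686), with NICD replicate 1 the lowest. MIR17HG, the host of the miR-17 cluster that MYC is known to raise, had a vector mean of 2.66, near the lowest deposited value, and its difference of 0.23 ± 0.12 was not called (limma adjusted p = 0.182). The 42 members not called with NICD differed by -0.36 to 0.34.

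Notch1 L1601P+ΔP changed 4 of the 59 members against vector, MIR205, MIR100HG, MIR205HG and MIR570HG, all downward, and 2 of the 4 probe sets read the MIR205 locus. That is 6.78% of members against 5.12% of all genes tested, with 6.78% against 2.95% for falls. Rises were called for 2.16% of all genes and for 0 members by limma, with 2 members higher at an unadjusted p under 0.05, and the alternatives run gave at most 1. At that unadjusted level 13.6% of members and 20.9% of all genes differed. MIR570HG was called here and not with NICD. It read 7.32, 7.14 and 7.34 with vector, 7.03, 7.21 and 7.29 with the full-length receptor, 6.95, 7.03 and 6.83 with Notch1 L1601P+ΔP, and 7.08, 7.01 and 7.16 with NICD. The Notch1 L1601P+ΔP arrays lay below those of vector and touched or overlapped the other groups. The difference of -0.34 ± 0.08 (limma adjusted p = 0.036) was not called in 7 of the 12 fits that left out 1 array: vector replicates 1 and 3, full-length replicate 2, NICD replicate 1 and each Notch1 L1601P+ΔP array (adjusted p at most 0.129). A dimmer probe set of MIR570HG differed by -0.18 and was not called (limma adjusted p = 0.452 over all probe sets). In that fit the brighter one was not called either (limma adjusted p = 0.0522). Of 11 alternatives run, 7 lost the call. MIR570HG overlaps a copy of the SDHA pseudogene family, SDHAP2, in RefSeq. Its NICD difference was -0.19, and NICD against Notch1 L1601P+ΔP gave 0.15 (limma adjusted p = 0.245).

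None of the 12 snoRNA hosts was called with Notch1 L1601P+ΔP by limma, and 1 was lower at an unadjusted p under 0.05. Their differences ran from -0.18 for SNHG4 to 0.10 for GAS5. For 13 of the 17 members called with NICD, the mean with Notch1 L1601P+ΔP lay between those of vector and NICD. The exceptions were MIR34BHG, MIR3682, MIR4435-2HG and SNHG33. Both comparisons share the vector arrays, so these positions are a description. The share among the other genes called with NICD was not computed, and MIR205 and MIR205HG, both among the 13, read the same locus.

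Full-length Notch1 changed 0 of the 59 members by limma, and 0.0354% of all genes tested, 0.0303% higher and 0.00506% lower. Before adjustment, 3 members (5.08%, against 5.32% of all genes) had a p under 0.05: MIR3681HG at 0.28, MIR4500HG at 0.17 and MIR4296 at -0.31 (limma adjusted p 0.815 to 0.915). The members' differences ran from -0.31 to 0.28 with a median of -0.02. No alternative run called a member here.

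NICD differed from Notch1 L1601P+ΔP in 12 members, 4 higher and 8 lower with NICD, or 20.3% against 19.8% of all genes tested. By direction, all genes gave 8.73% higher and 11.1% lower. The largest falls were again in MIR205HG (-1.45 ± 0.06, limma adjusted p = 4.3e-09), MIR205 (-1.41 ± 0.06) and MIR100HG (-0.79 ± 0.07). MIR31HG (-0.60), MIR200CHG (-0.57), SNHG4 (-0.46), MIR34BHG (-0.38) and SNHG19 (-0.29) followed. MIR4435-2HG (0.67 ± 0.12, limma adjusted p = 0.00117), MIR3682 (0.46), SNHG33 (0.37) and SNHG32 (0.19) were higher with NICD. Without Notch1 L1601P+ΔP replicate 1 the count fell to 7, with 1 higher and 6 lower, and MIR34BHG, MIR3682, SNHG19, SNHG32 and SNHG33 were each not called. Those 5 also lost the call without at least 1 further array: Notch1 L1601P+ΔP replicate 3 for MIR34BHG and MIR3682, Notch1 L1601P+ΔP replicate 2 for SNHG32, NICD replicate 1 for SNHG33, NICD replicate 2 for MIR34BHG and SNHG32, and NICD replicate 3 for MIR3682 and SNHG19 (adjusted p at most 0.112).

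NICD differed from full-length Notch1 in 16 members, 7 higher and 9 lower, or 27.1% against 27% of all genes tested (10.1% higher and 17% lower). Of the 17 members called against vector, 14 were called here too, and both comparisons share the NICD arrays. MIR205HG (-1.99 ± 0.06, 3.98-fold lower, limma adjusted p = 1.1e-10), MIR205 (-1.85) and MIR100HG (-1.32) had the largest falls, with 0.03 on the dimmer probe set of MIR100HG (limma adjusted p = 0.892), and MIR4435-2HG (0.80 ± 0.12, limma adjusted p = 0.000187) the largest rise. SNHG33 (0.42, limma adjusted p = 0.00389) and SNHG32 (0.32, limma adjusted p = 0.000521) were higher. After median centring of each array, 4 members were higher and 12 lower.

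A pair of members was called against full-length Notch1 alone. MIR142, a microRNA known from blood cell lineages, read 5.31, 5.36 and 5.36 with vector, 5.59, 5.45 and 5.50 with the full-length receptor, 5.48, 5.29 and 5.11 with Notch1 L1601P+ΔP, and 5.28, 5.19 and 5.02 with NICD. The full-length arrays lay above and the NICD arrays below those of vector. The difference of -0.35 ± 0.09 (limma adjusted p = 0.0119) was not called without NICD replicate 3 (limma adjusted p = 0.0544), and a second probe set gave 0.05. MIR142 overlaps MIR142HG and TSPOAP1-AS1 in RefSeq, and which of these the probes read was not tested. SNHG18, the host of SNORD123, was 0.19 ± 0.06 higher with NICD (limma adjusted p = 0.0436), a call lost in 9 of the 12 fits that left out 1 array (adjusted p at most 0.18), namely those without any 1 of the vector arrays, full-length replicates 2 and 3, Notch1 L1601P+ΔP replicates 1 and 3, or NICD replicates 1 and 2. In the same comparison, leaving out 1 array ended the calls of MIR2052HG (full-length replicates 2 and 3, NICD replicates 1 and 2), MIR34BHG (full-length replicate 1, NICD replicate 2) and MIR3682 (full-length replicate 1, NICD replicate 3), at adjusted p of at most 0.107. That of MIR3667HG (0.17, limma adjusted p = 0.0388) ended without full-length replicate 1 or 2, Notch1 L1601P+ΔP replicate 1 or any 1 of the NICD arrays (adjusted p at most 0.144), and it turned to -0.30 on the dimmer probe set and -0.06 with the mean of both.

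Notch1 L1601P+ΔP differed from full-length Notch1 in 3 members, or 5.08% against 3.72% of all genes tested (1.86% in each direction), and all 3 were lower. They were MIR205HG (-0.54 ± 0.06, limma adjusted p = 0.000268), MIR100HG (-0.53 ± 0.07, limma adjusted p = 0.00105) and MIR205 (-0.44 ± 0.06, limma adjusted p = 0.00171). The call of MIR100HG was lost on its dimmer probe set, which gave 0.11 (limma adjusted p = 0.653), and with the mean of both (-0.21, limma adjusted p = 0.0787). No member was called higher by limma, with 3 higher at an unadjusted p under 0.05 (9 members in both directions, 15.3% against 19.2% of all genes), and at most 1 was called higher in an alternative. SNHG32 was among those 3 (0.13, limma adjusted p = 0.191). Across the 6 comparisons, 20 members were called at least once and 39 in none.

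Promoter sequences, 250 bases before to 50 after a start, were held in RefSeq for 38 members, 54 sequences in all. They are shown for the member that fell most and the one that rose most with NICD. The motifs counted were TGGGAA, the core of RBPJ sites, its longer form CGTGGGAA, which contains it, the E-box CACGTG, each on both strands, and a run of at least 8 pyrimidines within 25 bases on either side of the start. The MIR205HG promoter (chr1:209428570-209428869, plus strand) holds none of the first 3. In that of MIR4435-2HG (chr2:111495112-111495411, minus strand) capitals mark a TGGGAA that begins 23 bases before the start.
MIR205HG: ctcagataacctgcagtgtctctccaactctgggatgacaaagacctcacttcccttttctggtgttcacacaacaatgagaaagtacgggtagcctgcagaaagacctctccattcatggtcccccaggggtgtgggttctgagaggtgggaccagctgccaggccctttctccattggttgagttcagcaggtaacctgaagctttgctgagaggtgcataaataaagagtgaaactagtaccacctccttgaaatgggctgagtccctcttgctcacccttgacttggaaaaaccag
MIR4435-2HG: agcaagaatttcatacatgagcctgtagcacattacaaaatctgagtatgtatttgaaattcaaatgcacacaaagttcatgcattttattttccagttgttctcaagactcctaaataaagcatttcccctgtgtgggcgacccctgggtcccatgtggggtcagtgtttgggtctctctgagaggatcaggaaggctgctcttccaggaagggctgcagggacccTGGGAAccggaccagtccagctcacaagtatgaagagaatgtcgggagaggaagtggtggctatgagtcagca

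TGGGAA was present in 9 of the 54 member promoters (16.7%) and in 24.0% of 35116 promoters of all genes. CGTGGGAA was in 0 of 54 and in 0.826% of all, and CACGTG in 1 of 54 (1.85%), a DLEU2 start, and in 7.26% of all. A pyrimidine run at the start was in 15 of 54 (27.8%) and in 20.7% of all promoters, and in 3 of the 12 snoRNA host promoters (25%). Of the 6 MIR100HG starts, 3 held TGGGAA. A match is a description of letters in this window, and its absence says nothing of the factor elsewhere.

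The proteins that make and use these small RNAs were set beside the hosts. With NICD against vector, 6 of the 17 tested genes of microRNA processing and action were called, 1 higher and 5 lower, or 35.3%, with a median log2 difference of -0.08. AGO2, the slicing Argonaute protein, fell by 0.54 (SE 0.08, limma adjusted p = 0.000283), AGO3 by 0.27, XPO5, the exporter of precursors, by 0.22 and TNRC6A, an Argonaute partner, by 0.19. TNRC6C rose by 0.37 (limma adjusted p = 0.000638). Of 16 tested snoRNP genes, 7 fell (43.8%, median -0.14), led by the assembly helicases RUVBL1 (-0.34, limma adjusted p = 0.000393) and RUVBL2 (-0.29), with SNU13 (-0.29) and the methyltransferase FBL (-0.25). Among 9 tested factors of nonsense-mediated decay, which degrades many spliced snoRNA hosts, RBM8A rose by 0.31 and UPF1 (-0.23) and SMG8 (-0.18) fell. The background for these counts is the 27.6% of all genes above, and the lists were not tested as sets.

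Small RNA hosts under other names moved in both directions with NICD. Of 38 tested protein-coding microRNA hosts, 4 rose and 8 fell (31.6%), among them CTDSPL, the host of miR-26a-1 (-0.90 ± 0.05, limma adjusted p = 6.39e-08), SREBF1, the host of miR-33b (-0.74), and SLIT2, the host of miR-218-1 (-0.49). AOPEP, in whose locus miR-23b, miR-27b and miR-24-1 lie, rose by 0.69 (SE 0.05, limma adjusted p = 4.1e-07), PTK2 by 0.42 and ARRB1 by 0.39. With Notch1 L1601P+ΔP against vector, AOPEP (0.37, limma adjusted p = 0.00102) and CTDSPL (-0.24, limma adjusted p = 0.027) were called in the same directions. Of 13 tested protein-coding snoRNA hosts, RPL27A (0.52 ± 0.17, limma adjusted p = 0.0365) and TAF1D (0.18) rose and RPL12 (-0.14) fell. The vector mean of RPL27A was 7.99, while those of the other tested ribosomal protein hosts ran from 14.11 to 14.6. Of 12 other noncoding hosts, CYTOR (0.78) and EPB41L4A-AS1 (0.19) rose and DLEU1 (-0.73) and DANCR (-0.25) fell.

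**Figure D4:**
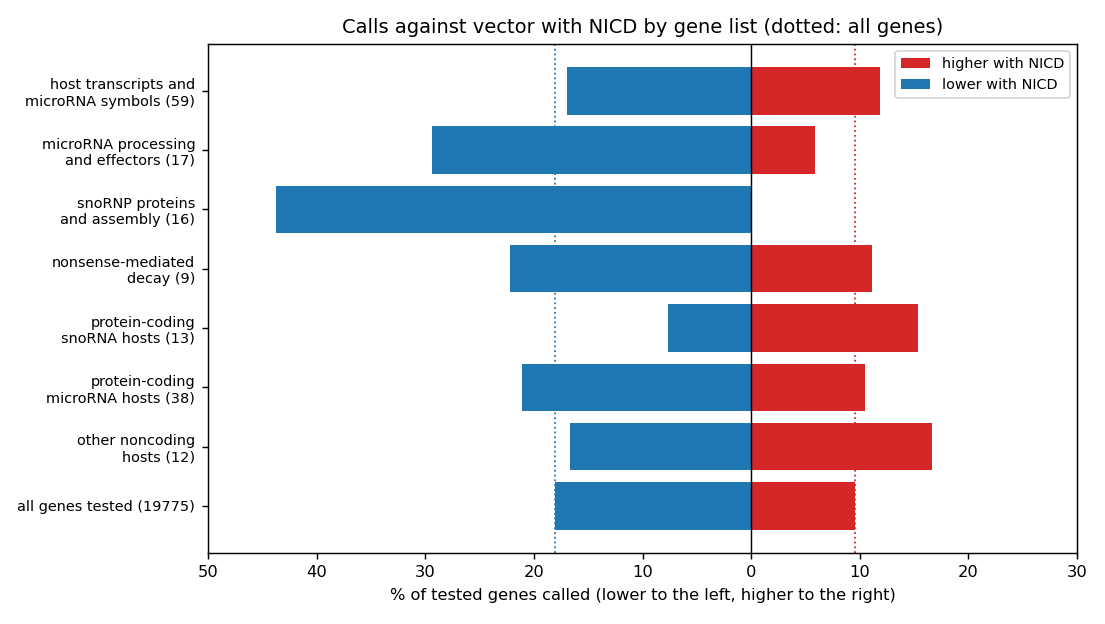
Bars give the percentage of tested genes called against vector with NICD in each list, lower to the left and higher to the right, with dotted lines at the shares of all 19775 genes (18.1% lower and 9.54% higher). The bars of the 59 members end near the dotted lines, and the snoRNP list has the longest bar to the left, 43.8%.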

How the data were processed

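RNA of 12 samples was hybridised to Affymetrix arrays. The authors deposited log2 signals made with RMA, and limma is named beside it, per the submitters' processing notes, with versions not given in the sources used here. RMA gives every array nearly the same distribution, which hides any shift common to most genes, and it compresses dim signals. Depth has no counterpart on arrays, whose number limits the precision. In the platform annotation 41097 of 54675 probe sets had a single symbol, 1801 had several and 11777 lacked one. The first kind named 19775 genes; 58 of the 59 members matched a RefSeq gene. The fit used limma 3.58.1 in R 4.3.3 (lmFit with group means over all 12 arrays, contrasts, eBayes; 8 residual and 4.09 prior degrees of freedom), with 6 comparisons, two-sided tests and Benjamini-Hochberg adjustment within each over all genes. The scripts were tested on simulated data. Every member called in any comparison is named, with its value on each array where its groups do not overlap and a called difference is at least 0.3 in size; under the other lists, up to 4 called genes per direction are named by size. GAS5, DLEU2, MIR181A2HG, MIR646HG, MIR17HG, SNHG17 and the hosts that share seeds with MIR100HG were named after their values were seen. Members and lists were chosen with earlier results of these data known. Listed genes without a probe set of 1 symbol were not analysed here, nor were 7 microRNA symbols with a suffix, except as an alternative added after seeing the data.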

Additional observations from a re-analysis of the deposited data

Results flagged for a closer look

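Probe sets with several symbols name no gene here and stand outside the comparisons above. Of these, 66 carry the symbol of at least 1 host transcript, and together they hold 36 host symbols, 10 of which are also on a probe set with 1 symbol. With NICD against vector, 14 of the 66 were called in a limma fit over all 54675 probe sets, 6 higher and 8 lower, or 21.2% against 19.4% of all probe sets. Their log2 differences ran from -0.61 to 2.48, and the highest of them exceeds the largest rise among the 59 members, 0.66 for MIR4435-2HG. Any gene named on such a probe set may give its signal, so this rise need not be that of a host transcript. With Notch1 L1601P+ΔP 1 of the 66 was called, higher, or 1.52% against 2.39% of all probe sets. Over all 259 probe sets with several symbols of which at least 1 matches the member rule, symbols of a microRNA itself included, 33 were higher and 48 lower with NICD against vector (31.3%), and their differences ran from -1.48 to 6.11.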

How the results depend on the processing

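Of 52 calls of a member in a comparison, 25 held in every alternative run. Among these were all calls of MIR205HG, MIR205, MIR200CHG, MIR31HG and SNHG4. The rest were calls of SNHG19, SNHG32, SNHG33 and MIR4435-2HG in some of their comparisons. MIR205HG, MIR205, MIR200CHG, MIR31HG and SNHG4 each have 1 probe set. Alternatives that take another probe set or average them therefore left their values unchanged. MIR100HG, with 2 probe sets, lost calls only in such alternatives. Leaving out 1 array at a time, the members called ranged from 11 to 17 for NICD against vector (11 without vector replicate 3, 10 of them among the 17), 3 to 4 for Notch1 L1601P+ΔP against vector, 0 to 0 for full-length Notch1 against vector, 7 to 13 for NICD against Notch1 L1601P+ΔP (7 without Notch1 L1601P+ΔP replicate 1), 3 to 4 for Notch1 L1601P+ΔP against full-length and 14 to 17 for NICD against full-length. The other totals stayed within 1.5 times the main ones. With the probe set of median signal, MIR100HG turned to 0.11 for Notch1 L1601P+ΔP and 0.03 for NICD against full-length Notch1, MIR142 to 0.05 and MIR3667HG to -0.30 for NICD against full-length; MIR3667HG was -0.06 there with the mean of its probe sets. The first kind of alternative reads another probe set and the second averages both. Over the calls and up to 11 alternatives, 493 results kept direction and call, 66 lost the call and 5 reversed. With the replicate number as a block, members called were 15, 3, 0, 12, 3 and 14 in the order of the comparisons as just listed, and 5 calls were lost: MIR4296 (adjusted p = 0.0513) and SNHG33 (0.0681) for NICD against vector, MIR570HG (0.0609) for Notch1 L1601P+ΔP against vector, and MIR3667HG (0.0626) and SNHG18 (0.056) for NICD against full-length. The labels do not say whether equal numbers pair the arrays. Over 18 same-numbered pairs the correlations of deviations ran from -0.11 to 0.16, with 1 over 0.1. Over 36 pairs of unlike number they ran from -0.11 to 0.14, with 4 over 0.1. With 3 arrays per group, such correlations cannot decide whether the arrays were paired. Cyclic loess moved the higher share of all called genes from 42.3% to 58.4% for Notch1 L1601P+ΔP against vector, from 50.1% to 62.5% against full-length (31.5% with median centring) and from 37.3% to 52.9% for NICD against full-length, with members split 0 and 3, 0 and 3, and 8 and 9.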

Other observations

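The 7 microRNA symbols with a letter or copy suffix after the number, such as MIR34A, were counted apart. With NICD against vector, 1 of them was called higher and 1 lower by limma, with log2 differences from -0.24 to 0.33. With them, 19 of 66 symbols were called in that comparison, beside 27.6% of all genes, a share near the background. Among the members called with NICD against vector, NICD replicate 3 lay farthest from the vector mean for MIR200CHG, MIR205, SNHG4, SNHG19 and MIR3682. Replicate 2 did so for MIR205HG, MIR100HG, MIR31HG, MIR34BHG, MIR4296, MIR4435-2HG, MIR2052HG, MIR3945HG and SNHG32. For MIR550A3HG, MIR3667HG and SNHG33 it was replicate 1. Replicate 3 was also the farthest for DLEU2 and MIR181A2HG, which were not called.

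Members with several probe sets did not always agree. MIR1915HG was not called on its brightest probe set (-0.06 with NICD) but was on its second (-0.39, limma adjusted p = 0.00587 over all probe sets), and on the third it fell by 0.50 with Notch1 L1601P+ΔP (adjusted p = 0.0258). MIR9-1HG, a host of miR-9, was not called on its brightest probe set (0.03), and the third rose by 0.24 with NICD (adjusted p = 0.0399) and by 0.43 with Notch1 L1601P+ΔP (adjusted p = 0.00725). Both were noticed after the values were seen.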
